A study of Mus musculus with 20 samples.

Results

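The cytosolic ribosomal protein genes were followed in open-chromatin peak lists from C2C12 cells, a mouse myoblast line that forms muscle cells when induced. The set was taken by symbol from the protein-coding genes of the GRCm38 gene table: Rpl or Rps followed by digits, with Rplp0, Rplp1, Rplp2 and Rpsa, without pseudogenes and without the Rps6 kinases. This gave 89 of 21631 protein-coding genes. They comprise 46 genes of large-subunit proteins, 31 genes of small-subunit proteins, 11 variant paralogs or retrogenes, and Rps19bp1, which encodes a protein that binds Rps19 and is not itself a ribosomal protein. A gene counted as called in a library if at least 1 peak overlapped the 1 kb on either side of one of its ends.

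Chromatin was profiled by ATAC-seq, in which a transposase cuts open DNA and attaches sequencing adapters to it. Cells were wild type (WT) or lacked Setd2 (KO), the gene of the methyltransferase that places trimethylation on lysine 36 of histone H3. Both genotypes were sampled at day 0 (D0), day 1 (D1) and day 5 (D5), the last pair of days with methionine restriction (MR) or with control medium (CTL), which gave WT D0, WT D1 CTL, WT D1 MR, WT D5 CTL, WT D5 MR and the same 5 groups of KO cells. There were 2 libraries in each of these 10 groups. The WT libraries carried the numbers 1 and 2, and nothing in the labels says that they were separate cultures. The spread between them, on which p-values rest, may be technical. The KO libraries came from 2 KO lines, with 1 library of each line per group. Tests of rank and width pool the spread within WT and KO groups, and within a KO group it lies between the 2 lines. The labels do not give the guide, the edited site or the amount of methionine.

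Cytosolic ribosomal proteins fold onto ribosomal RNA to make the small subunit, which decodes the messenger, and the large subunit, which joins the amino acids. Their genes are transcribed in all growing cells and have to yield subunits in near-equal amounts. Many of their transcripts begin with a C followed by pyrimidines, the 5′ terminal oligopyrimidine tract, through which their translation follows amino acid supply and mTOR signalling. Several of the genes also carry small nucleolar RNA genes in their introns.

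The lists held 644 to 69881 peaks. The 2 libraries of KO line 1 at D5 were far shorter than the others, with 644 peaks in CTL and 1881 in MR, so ranks and widths in KO at D5 rest on line 2 alone, with 29963 and 22062 peaks, while the tests of calls used all 20 libraries. The 18 other libraries are called the longer lists here and held 20847 to 69881 peaks. Setd2 had a gene-end peak in all 18 longer lists, in both genotypes, and such a peak does not test for the deletion, whose position is not in the labels. Of 6 myoblast markers, Myod1, Des, Cdh15 and Itga7 were called in 17 or 18 of the 18 longer lists, whereas Myf5 and Pax7 were called in 0. Of 4 genes of differentiated muscle (Myog, Acta1, Ckm, Mymk), WT libraries had 1 called at D0 and 3 or 4 at D1 and D5, and KO libraries had 0 to 2 called at any day. Of 12 markers of fibroblasts, endothelium, blood, fat, nerve and epithelium, 0 to 4 were called per library, mostly Cd68 and Pparg.

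Promoter sequence was available from RefSeq (GRCm38.p6) for 69 of the 89 genes, and 57 of these are subunit genes. The hexamer CCGGAA, the core of the site bound by ETS-family factors, was present on either strand between 250 bases before and 50 bases after a start in 32 of the 57 subunit genes (56.1%), against 21.2% of all 17268 protein-coding genes with a start on the same chromosomes. The palindrome TCTCGCGA was present in 11 subunit genes (19.3%), against 1.61% of all genes. A C at the annotated start followed by at least 4 pyrimidines was present in 13 subunit genes (22.8%), against 2.70% of all genes. The genes of mitochondrial ribosomal proteins, which were looked at in the same way, had CCGGAA in 40 of 69 (58.0%), TCTCGCGA in 1 and a pyrimidine tract opening at the start in 0. TATAAA was present in 6 of 57 subunit genes (10.5%), against 14.9% of all genes. These are matches of letters on either strand, with the tract read on the coding strand only, and they do not show binding.

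The sequences below run from 100 bases before the most upstream annotated start to 12 bases into the transcript. Capitals mark CCGGAA or its reverse complement TTCCGG, TCTCGCGA, and the longest C-led pyrimidine run of at least 6 bases that opens within 10 bases of the start. The first 5 are large-subunit genes whose own start peak had a lower rank in WT D5 CTL than in WT D1 CTL. They are Rplp0 at chr5:115559367-115559478 (plus strand), Rpl31 at chr1:39367751-39367862 (plus strand), Rpl34 at chr3:130730387-130730498 (minus strand), Rpl27 at chr11:101442145-101442256 (plus strand) and Rpl41 at chr10:128549157-128549268 (minus strand).

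Rplp0: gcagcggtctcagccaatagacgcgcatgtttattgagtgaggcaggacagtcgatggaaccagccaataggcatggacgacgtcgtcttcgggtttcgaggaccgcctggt
Rpl31: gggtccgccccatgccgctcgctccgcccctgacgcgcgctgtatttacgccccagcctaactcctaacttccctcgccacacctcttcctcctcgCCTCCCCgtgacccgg
Rpl34: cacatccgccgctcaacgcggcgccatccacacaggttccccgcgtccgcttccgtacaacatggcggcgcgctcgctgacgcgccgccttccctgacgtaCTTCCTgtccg
Rpl27: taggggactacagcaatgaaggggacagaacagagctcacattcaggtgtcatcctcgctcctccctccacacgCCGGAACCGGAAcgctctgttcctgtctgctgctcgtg
Rpl41: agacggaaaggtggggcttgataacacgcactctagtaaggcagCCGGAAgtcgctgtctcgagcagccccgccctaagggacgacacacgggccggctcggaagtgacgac

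Rps21 and Rpl22l1 are shown because their start peaks had a higher rank under MR than in CTL at D5 in WT. Rps6 and Rpl35 are shown as genes with a TCTCGCGA in their promoter and a long pyrimidine run at the start, the motif of Rpl35 lying outside the stretch printed, and Rps25 as the subunit gene with no gene-end peak in any library. They are Rps21 at chr2:180257279-180257390 (plus strand), Rpl22l1 at chr3:28805408-28805519 (plus strand), Rps6 at chr4:86857356-86857467 (minus strand), Rpl35 at chr2:39005120-39005231 (minus strand) and Rps25 at chr9:44407614-44407725 (plus strand). Rps6 and Rpl35 were chosen for display after their sequences were seen.

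Rps21: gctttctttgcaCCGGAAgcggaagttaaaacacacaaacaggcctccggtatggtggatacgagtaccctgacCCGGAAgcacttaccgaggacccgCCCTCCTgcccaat
Rpl22l1: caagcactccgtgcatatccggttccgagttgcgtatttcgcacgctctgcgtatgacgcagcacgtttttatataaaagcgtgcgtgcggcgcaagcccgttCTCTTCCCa
Rps6: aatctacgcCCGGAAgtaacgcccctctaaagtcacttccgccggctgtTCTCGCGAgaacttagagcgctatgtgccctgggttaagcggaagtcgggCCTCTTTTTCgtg
Rpl35: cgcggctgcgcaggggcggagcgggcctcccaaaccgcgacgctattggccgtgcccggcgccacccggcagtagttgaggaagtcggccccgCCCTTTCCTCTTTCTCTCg
Rps25: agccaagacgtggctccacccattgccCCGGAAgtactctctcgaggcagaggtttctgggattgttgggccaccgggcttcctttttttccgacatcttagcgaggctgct

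Most members had an open gene end in most libraries. In the 18 longer lists between 51.7% and 88.8% of the 89 members were called, with a median of 77.5%, against 34.3% to 52.9% of all protein-coding genes, with a median of 46.0%. The share of members exceeded that of all genes 1.49 to 1.97 times. In WT at D0 it was 76.4% and 82.0%, in WT D1 CTL 82.0% and 76.4%, in WT D1 MR 87.6% and 84.3%, in WT D5 CTL 57.3% and 51.7%, and in WT D5 MR 76.4% and 79.8%. In KO lines 1 and 2 it was 88.8% and 65.2% at D0, 84.3% and 78.7% in D1 CTL, and 83.1% and 74.2% in D1 MR. At D5 KO line 2 had 76.4% in CTL and 67.4% in MR, and the short lists of line 1 had 0 members and 5.62%. The WT D5 CTL libraries were the lowest of the 18, and the pair at KO D0 lay further apart than any other pair of longer lists. The share followed list length in that pair, which held 63530 and 30629 peaks.

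**Figure D1:**
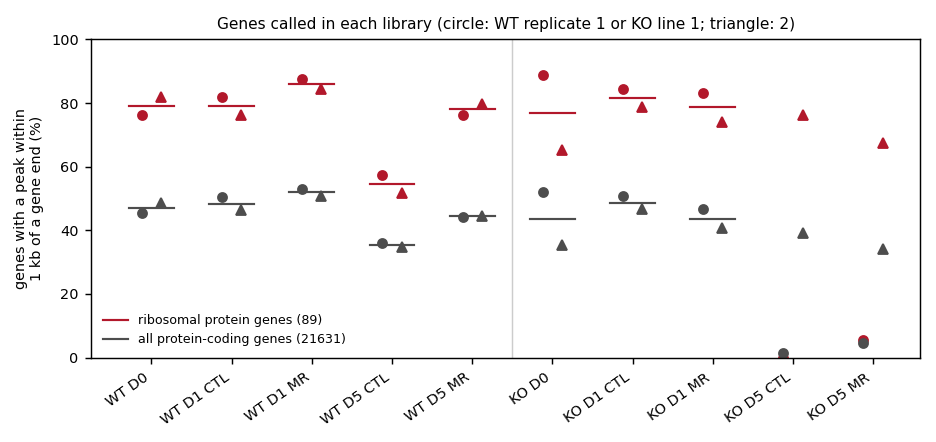
Percent of the 89 ribosomal protein genes (red) and of all 21631 protein-coding genes (grey) whose gene ends had a peak inside 1 kb, one symbol per library and a bar at the group mean, left out where 1 list is short. The WT D5 CTL libraries, at 57.3% and 51.7%, are the lowest red symbols outside the short lists of KO line 1 at D5.

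Called members had peaks of about the width and rank of other called genes. Over the 18 longer lists the median width of the strongest gene-end peak (the peak with the highest −log10 q) was 153 to 414 bp for members and 182 to 401 bp for all called genes. The median within-list rank, the percent of peaks of the same list with a lower −log10 q, was 53.0 to 85.4 for members and 61.2 to 81.6 for all called genes. By group mean and SD over 2 libraries, the members' median width was 266 ± 29.7 bp and their median rank 72.1 ± 6.17 in WT at D0. Their median width was 290 ± 46 bp in WT D1 CTL, 365 ± 16.6 bp in WT D1 MR, 168 ± 21.6 bp in WT D5 CTL and 246 ± 14.1 bp in WT D5 MR. In KO cells it was 300 ± 162 bp at D0, 318 ± 85.6 bp in D1 CTL and 285 ± 68.9 bp in D1 MR, and KO line 2 had 272.5 bp in D5 CTL and 280.0 bp in D5 MR. The median rank was 73.5 ± 1.27 in WT D1 CTL, 82 ± 1.54 in WT D1 MR, 62.5 ± 0.971 in WT D5 CTL and 76 ± 3.53 in WT D5 MR. In KO cells it was 73.4 ± 17 at D0, 71.6 ± 7.56 in D1 CTL and 70.1 ± 7.36 in D1 MR, and KO line 2 had 61.8 in D5 CTL and 53.0 in D5 MR. Ranks within whole lists describe each list, and lists of different length are not compared by them.

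Of the 89 members, 41 (46.1%) were called in all 18 longer lists, 39 in some and 9 (10.1%) in none, against 25.7% and 42.2% of all protein-coding genes for all and none. The subunit genes accounted for 37 of the 41. By subunit, the percent called per library ranged from 58.7% to 100% for the large and from 48.4% to 93.5% for the small subunit, with medians of 87.0% and 80.6%. Of the 11 paralogs and retrogenes, 4 were called in each of the 18 lists: Rpl3l, Rpl7l1, Rpl22l1 and Rpl36al. Members were short, with a median gene length of 3183 bp against 17329 bp for all genes, and 33.7% held a small nucleolar RNA gene against 1.72%. Within 1 kb of an end, 36.0% of members and 25.1% of all genes had the end of another gene, so a peak at a member's end can belong to its neighbour.

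The 9 members with no call were 1 subunit gene, 7 paralogs or retrogenes, and Rps19bp1. The paralogs were Rpl10l, Rpl39l, Rpl32l, Rpl37rt, Rps23rg1, Rps27rt and Rps27l. Rpl10l and Rpl39l are the testis-enriched copies of Rpl10 and Rpl39. The subunit gene was Rps25, which encodes a small-subunit protein near the exit site and is needed by viral internal ribosome entry sites. The nearest peak to its ends lay at a median of 7601 bp and never closer than 7578 bp. One of its neighbours, Trappc4, was also called in 0 of the 18 lists, and the other, Ccdc84, in 14. A missing call says that no peak passed the caller's threshold there, not that the chromatin was closed.

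Rps27l, a paralog of Rps27 that responds to p53, had a peak at an annotated start in all 18 longer lists, as did Rps2 and Rpl22, although by gene ends they were called in 0, 2 and 4 lists. For all 3 a peak lay inside the gene in all 18 lists, at a median of 1201 bp (Rps27l), 1734.5 bp (Rps2) and 1234.5 bp (Rpl22) from the nearer gene end. The opposite held for Rpl3l, the muscle-specific paralog of Rpl3, which was called in 18 lists by its gene ends and in 0 at its own starts, and for Rpl4, a protein that lines the exit tunnel, with 18 and 4. The peak counted for Rpl3l covered the start of Msrb1 in 12 lists, and the peak counted for Rpl4 covered the start of Snapc5 in 17.

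Other members called in few lists were Rps15a and Rpl22 with 4, and Rps2, Rpl17 and Rpl29 with 2 each. Rps4x, the X-linked small-subunit gene, was called in 10 lists, Rpl32 and Rpl37a in 9, Rpl24 and Rpl39 in 11, and Rps16, Rps24 and Rpl35a in 12. Rpl5, a partner of the 5S ribosomal RNA, was called in 13 lists, as were Rpl6, Rpl23a, Rps12 and Rps23. The counts were 14 for Rps3, Rps7 and Rpl27a, and 15 for Rpl8, Rpl21, Rpl23 and Rplp2. Members that missed only 1 or 2 lists included Rpl26, Rpl38, Rps14 and Rps27a, called in 16, and Rpl7a, Rpl10, Rpl12, Rpl36a, Rplp1, Rps9 and Rps28, called in 17.

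**Figure D2:**
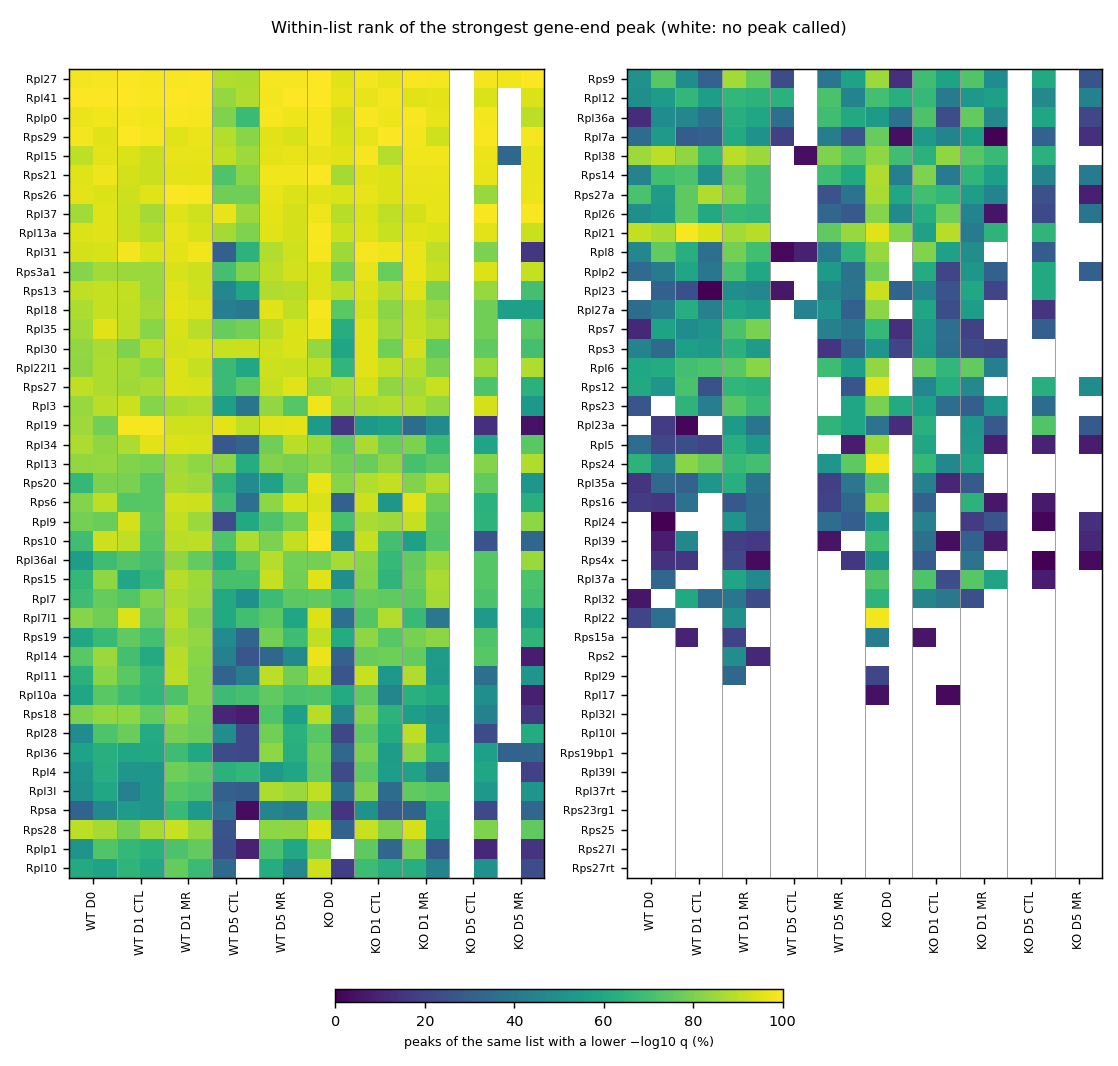
Within-list rank of the strongest gene-end peak for 84 of the 89 members (rows) in the 20 libraries (columns, 1 and 2 side by side in each group); colour runs from 0 to 100 percent of peaks with a lower −log10 q and white marks no call. The 39 of these called in all 18 longer lists fill the first rows of the left panel, and the 9 never called stand last on the right.

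Among the highest median within-list ranks were those of Rpl27 with 98.6, Rpl41 with 98.3, Rplp0 with 97.9 and Rps29 with 96.5. Rplp0 is the base of the acidic stalk that recruits elongation factors, and Rpl41 is the smallest protein of the ribosome. The lowest were those of Rpl17 with 3.54, Rps15a with 15.04, Rps4x with 16.2, Rpl39 with 16.7 and Rpl5 with 23.9, each over the lists in which it was called. Rpsa, the small-subunit protein also known as the laminin receptor, had a median rank of 43.9 although it was called in all 18. Rpl3, next to the peptidyl transferase centre, had 86.1, and Rps6, the substrate of the S6 kinases, had 79.8.

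The widest strongest peaks by median were those of Rpl7 with 1247 bp, Rpl10 with 938 bp, Rps19 with 742.5 bp, Rpl37 with 673.5 bp and Rps21 with 663.5 bp. The narrowest were those of Rps23 with 70 bp, Rpl32 with 90 bp, Rpl29 with 98.5 bp, Rpl35a with 103.5 bp and Rpl6 with 109 bp. Rpl10, whose protein joins the large subunit late in its assembly, had a peak that was 142 bp wide in the 1 WT D5 CTL library where it was called and 490 to 1012 bp wide in the other 16 libraries. Rpl7 showed 2 widths, 434 to 475 bp in 5 libraries and 1179 to 1515 bp in 13.

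Among the 939 pairs of a called member and a longer list whose start was in the table, the strongest peak covered an own start in 73.8% and lay within 500 bp of one in 85.1%. Peaks that covered a start reached from a median of 159 bp before it to 83 bp after it. For 46 members the strongest peak lay within 500 bp of an own start in every list in which they were called, for 9 in some and for 5 (Rpl18, Rpl19, Rpl3l, Rpl4 and Rps2) in none, and 20 called members had no start in the table. For Rps18 the strongest peak covered a start of another gene in 16 lists and its own in 3. The nearest other start was most often that of B3galt4. Rps26, named here after its values were seen, had its strongest peak 415 to 261 bp upstream of its start by median edges and covered the start in 1 of 18 lists.

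**Figure D3:**
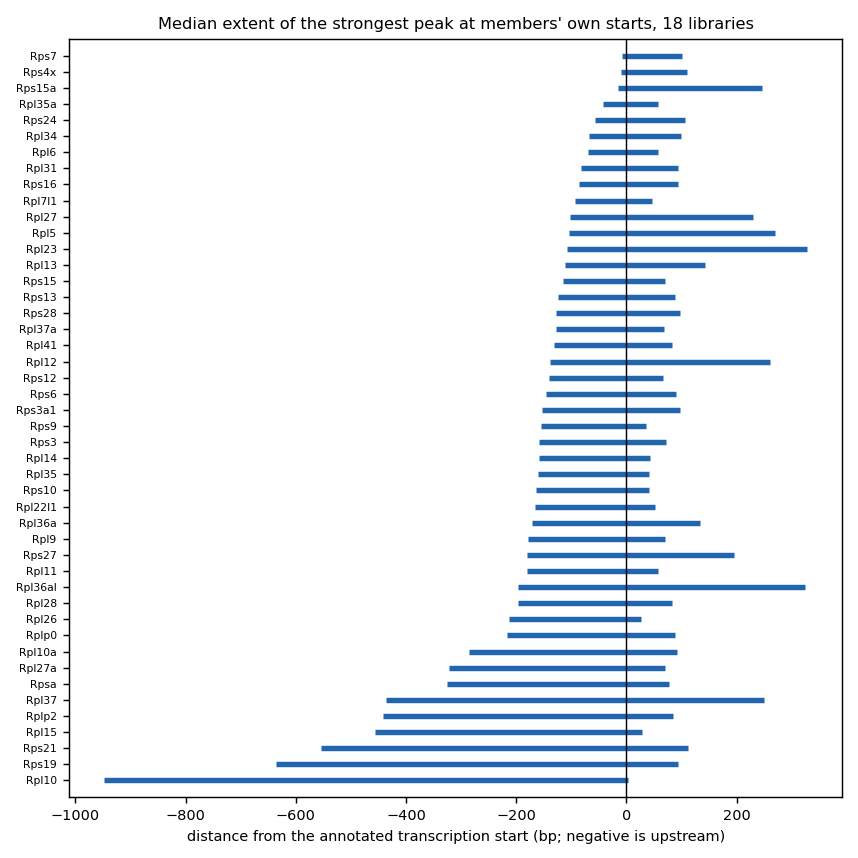
Median extent, in bp from the annotated start, of the strongest peak of the 46 members whose peak covered an own start in at least as many longer lists as not. The bars span the start and reach further upstream than downstream in 31 of 46, with edges from −947 bp (Rpl10) to 328 bp (Rpl23).

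To compare conditions over the same genes in every list, the strongest gene-end peaks of the 5569 genes called in all 18 longer lists were ranked among themselves in each library by −log10 q. This common-set rank runs from 0 to 100 and has a median of 50 in each library by construction. It covered 41 of the 89 members, and differences in points were tested with limma over all 5569 genes, with Benjamini-Hochberg adjusted p under 0.05 as the threshold. A rank compares genes within a library and does not measure absolute openness.

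In WT cells in control medium, 7 ribosomal protein genes held lower ranks at D5 than at D1. Of the 41 members, 8 passed the test (19.5%), 7 of them lower at D5 and 1 higher, against 360 of 5569 genes (6.46%), with 175 (3.14%) lower and 185 (3.32%) higher. The median difference was −4.96 points over the 41 members and 0.09 over all genes. The 7 that fell were the large-subunit genes Rplp0, Rpl18, Rpl27, Rpl31, Rpl34 and Rpl41 and the small-subunit gene Rps18, and Rpl4 rose.

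Rplp0 ranked at 93.7 and 92.7 in WT D1 CTL and at 63.0 and 46.9 in WT D5 CTL. These pairs did not overlap, and the difference was −38.2 ± 6.02 points (SE, 2 libraries per group, limma adjusted p = 0.00806). Rpl31, a protein at the rim of the exit tunnel, ranked at 93.1 and 82.3 at D1 and at 10.98 and 42.55 at D5, a difference of −60.9 ± 10.2 points (limma adjusted p = 0.00968). Rpl34 ranked at 55.2 and 85.4 at D1 and at 9.11 and 13.5 at D5, a difference of −59.0 ± 12.3 points (limma adjusted p = 0.0232). Both genes were lower in each D5 library than in either D1 library.

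Rpl41 ranked at 98.8 and 97.1 at D1 and at 68.8 and 76.7 at D5, and Rpl27 at 97.1 and 94.7 at D1 and at 75.8 and 76.3 at D5. They fell by 25.3 and 19.9 points (SE 5.93 and 4.78, limma adjusted p = 0.0342 and 0.0369). With ranks by the authors' fold enrichment in place of −log10 q, both lost the call (limma adjusted p = 0.103 for Rpl41 and 0.0502 for Rpl27), and 6 members passed, against 6.46% of genes. The strongest peaks of these 5 genes cover their own starts in all 18 lists. With peaks at annotated starts only, the same 5 members passed, out of 31 fitted, against 7.15% of 4729 genes. That setting reads the same peaks for these 5 and changes only the genes they are ranked among, so it is no separate test of them. The other calls belong to peaks away from the member's start. Rpl18 fell by 42.3 points at a peak that covers the start of Sphk2 in 14 lists. This call was lost with normal scores in place of percentiles (limma adjusted p = 0.0664). Rps18 fell by 37.6 points at peaks away from its own start. Rpl4 rose from 4.22 and 8.76 to 39.7 and 43.9 at the Snapc5 start.

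WT D5 CTL had the shortest WT lists, with 22465 and 20847 peaks against 60173 and 45545 in WT D1 CTL, and the part of list length in the rank differences was not tested. In KO line 2 at D5, whose MR list was as short, with 22062 peaks, Rplp0 ranked at 78.9, Rpl27 at 98.2, Rpl41 at 87.3 and Rpl31 at 5.05. That list is 1 library, which also differs from WT D5 CTL in genotype and medium. The 4 muscle genes also had other values in these groups: 4 and 4 were called at D1 and 4 and 3 at D5, with summed −log10 q of 114 and 63.1 at D1 and of 26.7 and 22.1 at D5. Of the 6 myoblast markers 4 were called in each of these libraries, with sums of 135 and 93.4 at D1 and of 32.4 and 27.7 at D5, and Myf5 and Pax7 were at 0. The part of differentiation in the result was not tested. Without WT replicate 1 or without WT replicate 2, which leaves a lone WT library per group, 0 genes passed and 4 and 7 members had an unadjusted p under 0.05 (limma), whereas without KO line 1 or line 2, 15 of 41 and 14 of 44 members passed, against 25.2% and 23.7% of all genes fitted.

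Under methionine restriction at D5, 7 members in WT held higher ranks than in control medium. Of the 41 members, 8 passed (19.5%), 7 of them higher under MR and 1 lower, against 258 of 5569 genes (4.63%), with 150 (2.69%) higher and 108 (1.94%) lower. The median difference was 13.4 points over the members and −0.25 over all genes. Both WT D5 CTL libraries serve in this comparison and in that of D5 with D1, so the comparisons are not independent, and their values are given side by side only.

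Subunit genes that rose included Rplp0, Rpl31, Rps21 and Rpl18. Rplp0 ranked at 94.7 and 89.2 under MR, against 63.0 and 46.9 in CTL, a difference of 37.0 ± 6.02 points (limma adjusted p = 0.0134). Rpl31 ranked at 62.3 and 74.6 under MR, against 10.98 and 42.55, a difference of 41.7 ± 10.2 points (limma adjusted p = 0.0448), and lost the call with fold enrichment (limma adjusted p = 0.0585) and with normal scores (limma adjusted p = 0.0890). Rps21, a small-subunit gene, ranked at 90.5 and 90.6 under MR and at 50.4 and 67.1 in CTL, a difference of 31.8 ± 7.49 points (limma adjusted p = 0.0411). For these 3 genes each MR library lay above both CTL libraries, and the MR ranks of Rplp0 were within 5 points of those at D1 in CTL.

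Among the paralogs, Rpl22l1, the gene of the variant of Rpl22, ranked at 73.8 and 71.3 under MR and at 44.6 and 36.2 in CTL, a difference of 32.2 ± 5.82 points (limma adjusted p = 0.0162). Rpl3l rose by 46.3 points at the Msrb1 start, and lost the call with fold enrichment (limma adjusted p = 0.0506) and with normal scores (limma adjusted p = 0.0887). Rpl18 rose by 56.7 points at a peak away from its own start. Rpl4 fell by 29.7 points at the Snapc5 start. With starts only, 4 of 31 members passed, Rplp0, Rpl31, Rps21 and Rpl22l1, against 5.08% of 4729 genes. Their peaks are the same in both settings, so this is no separate test of them. Rpl34, Rpl41 and Rpl27 had differences of 41.9 ± 12.3, 22.7 ± 5.93 and 18.4 ± 4.78 points, with adjusted p above the threshold.

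The WT D5 MR lists held 39538 and 39263 peaks, against 22465 and 20847 in CTL, and the part of list length was not tested. The muscle genes had 4 and 3 of 4 called in both media, with sums of −log10 q of 54.7 and 46.2 under MR and of 26.7 and 22.1 in CTL. The myoblast markers had 4 of 6 called in each, with sums of 73.0 and 71.0 under MR and of 32.4 and 27.7 in CTL, and the part of differentiation was not tested. Without WT replicate 1 or 2, 0 genes passed and 3 and 6 members had an unadjusted p under 0.05 (limma), and without KO line 1 or 2, 14 of 41 and 16 of 44 members passed, against 20.3% and 19.7% of all genes fitted. With fold enrichment 6 members passed, against 3.41% of genes, and with normal scores 2 passed, Rplp0 and Rpl18, against 2.39% of genes.

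**Figure D4:**
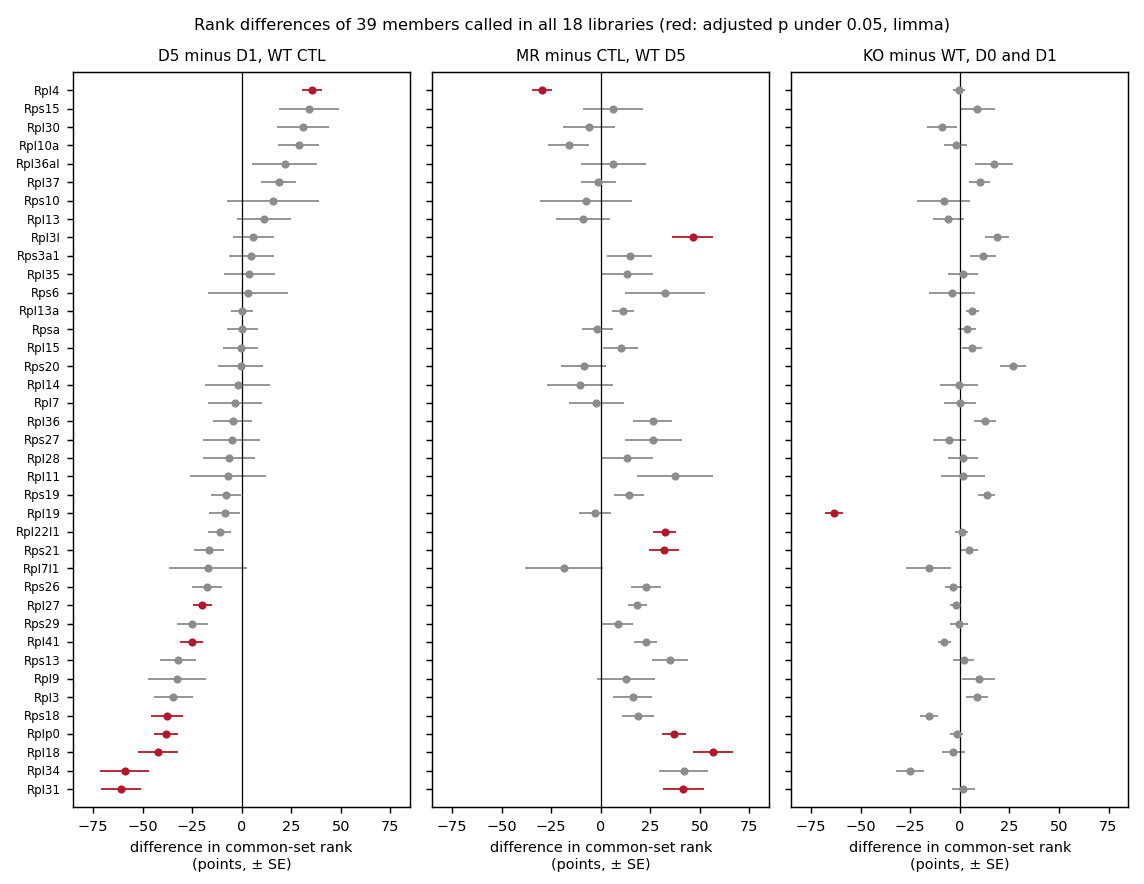
Difference in common-set rank (points, with its SE from limma) for 39 of the 41 members called in all 18 longer lists, in 3 comparisons, the left and middle ones of which share the WT D5 CTL libraries; red marks an adjusted p under 0.05. The lowest points on the left are Rpl31 at −60.9 and Rpl34 at −59.0, and the single red point on the right is Rpl19 at −63.3.

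At D1 no member passed for restriction in either genotype, out of 41 fitted, and 0 of 5569 genes passed in each (0.0%). In WT 515 genes and 5 members, and in KO 546 genes and 1 member, had an unadjusted p under 0.05 (limma). The members' median difference was 6.47 points in WT and 4.39 points in KO, against 0.66 and 0.56 over all genes. The interaction of genotype and restriction at D1 gave 0 genes, with 272 genes and 3 members at an unadjusted p under 0.05 (limma). From D0 to D1 in WT control medium 1 gene (0.018%) and 0 members passed, with 255 genes and 3 members at an unadjusted p under 0.05 (limma). Without KO line 1 the comparison of restriction in KO at D1 is of 1 library with 1, its spread taken from the WT pairs.

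Between genotypes, averaged over D0, D1 CTL and D1 MR, 1 of 41 members passed (2.44%), against 216 of 5569 genes (3.88%), of which 127 (2.28%) were lower in KO. The member was Rpl19, lower in KO by 63.3 points (SE 4.58, limma adjusted p = 0.000186). The fit treats the 6 KO libraries as independent although they came from 2 lines. Within a KO group the spread is that between the 2 lines. Libraries of the same line count as separate, so the p-value does not take the lines as its units. Rpl19 ranked at 58.5 and 34.2 at D0, 93.7 and 95.2 in D1 CTL and 64.0 and 67.6 in D1 MR in WT, and at 1.43 to 13.4 in the 6 KO libraries of these groups, with no overlap. The peak is not at the Rpl19 start: it lay a median of 5187.5 bp from it and 1116 bp from a start of Cacnb1, a calcium channel subunit gene of muscle. At the Rpl19 start itself a peak was called in 13 of the 18 longer lists. With starts only, 0 of 31 members passed, against 3.13% of 4729 genes, and 3 had an unadjusted p under 0.05 (limma). With windows of 500 bp, or with peaks of −log10 q of at least 2 only, 0 members passed. Rpl19 was not among the genes fitted in either setting or with starts only, so these do not test its difference. It passed in the 4 alternative settings that fitted it with no library left out.

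The 4 muscle genes differed between the same libraries: 1 to 4 were called in WT at D0 and D1, with sums of −log10 q of 15.7 to 114, and 0 to 2 in KO, with sums of 0 to 14.8, and Myog and Ckm were at 0 in every KO library. Of the 6 myoblast markers 4 were called in each of these 12 libraries, with sums of 82.8 to 135 in WT and of 22.8 to 98.1 in KO. Their part in the Rpl19 difference was not tested. With the replicate number or KO line as a block 3 members passed (Rpl19, Rps18 and Rps20), against 11.1% of genes, without WT replicate 1 or 2, 0 passed and 2 and 3 had an unadjusted p under 0.05 (limma), and without KO line 1 or 2, 7 of 41 and 4 of 44 passed, against 26.9% and 21.4% of all genes fitted.

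**Figure D5:**
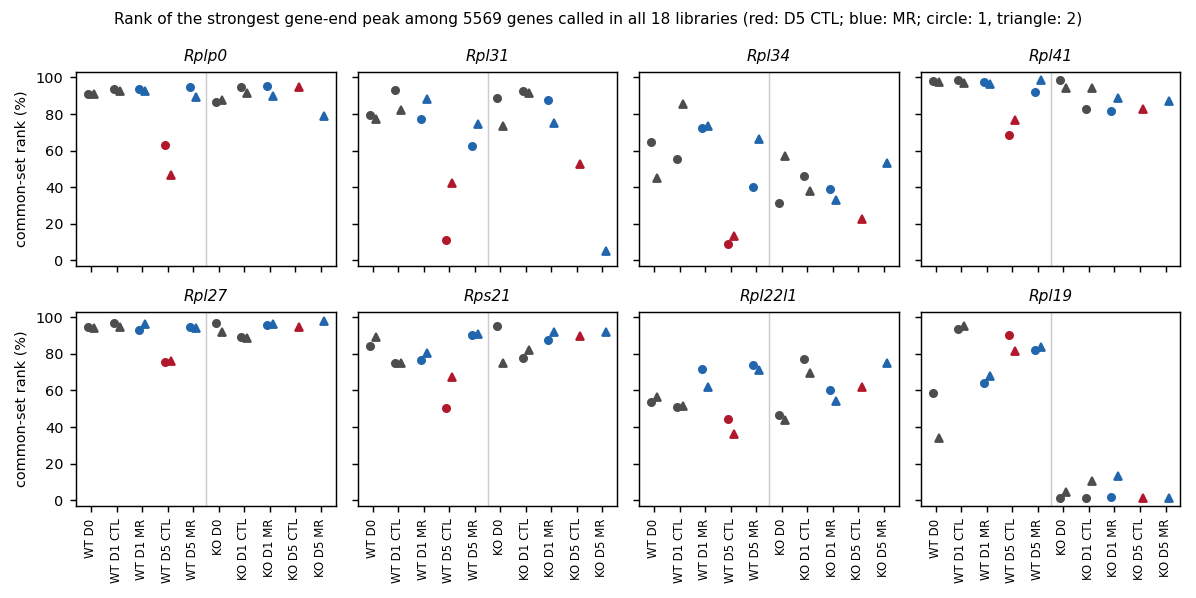
Common-set rank (0 to 100) in each longer list for 8 members, by group, with circles for WT replicate 1 or KO line 1 and triangles for 2. Red WT D5 CTL symbols lie below those of WT D1 CTL and WT D5 MR for the first 7 genes, and Rpl19, read at a peak near Cacnb1, stays at or below 13.4 in KO.

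Peak width, taken as log2 width less the library's median over the 5569 genes, differed in few members. Between genotypes 0 of 41 passed, against 0.162% of genes, with 5 members at an unadjusted p under 0.05 (limma). From D1 to D5 in WT CTL, 1 of 41 passed, against 2.44% of genes. It was Rpl13, whose peak was 428 and 249 bp wide at D1 and 73 and 88 bp at D5, without overlap, a centred log2 difference of −1.27 ± 0.29 (limma adjusted p = 0.0436). Between MR and CTL at D5 in WT, Rpl4 alone passed, against 2.21% of genes, with 319 and 368 bp under MR and 96 and 109 bp in CTL at the Snapc5 start (centred log2 difference 1.12 ± 0.25, limma adjusted p = 0.0446). Rpl4 lost the call with the block (limma adjusted p = 0.0544), without centring and with joint covered length, and kept it in 2 of 5 alternative settings. With starts only no member passed by day, against 2.09% of genes, or by medium at D5, against 2.2%, with 4 and 2 members at an unadjusted p under 0.05 (limma), and Rpl13 kept a difference of −1.27 (limma adjusted p = 0.0527). Without WT replicate 1 or 2 no member passed in either width comparison.

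Calls themselves were tested gene by gene with an exact permutation test of the labels within strata, two-sided, with Benjamini-Hochberg adjustment over the genes whose calls allowed a p of 0.05 or lower. For D5 against D1, 13 members were testable and 8 passed (61.5%), all called less often at D5, against 1138 of 1788 genes (63.6%), which is a share near that of all genes. They were Rpl32, called in 7 of 8 libraries at D1 and 0 of 8 at D5 (exact permutation, adjusted p = 0.0414), Rps3 and Rpl6 and Rps23, with 8 of 8 and 2 of 8 each, Rpl21, with 8 of 8 and 3 of 8, Rps24 and Rpl35a, with 7 of 8 and 2 of 8, and Rpl37a, with 6 of 8 and 1 of 8. The 8 D5 libraries include the 2 short lists of KO line 1, in which none of these 8 members was called. Rps3 sits at the messenger entry channel and Rps23 near the decoding centre. With the 20000 strongest peaks of each list in place of whole lists 0 of 12 testable members passed and 3 had an unadjusted p under 0.05 (exact permutation), and without the KO D5 libraries no member was testable. With the block 4 of 7 testable members passed, against 84.8% of testable genes, without WT replicate 1 or 2, 0 of 3 and 0 of 8 passed and 3 and 4 had an unadjusted p under 0.05 (exact permutation), and without KO line 1 or 2, 1 of 1 and 4 of 4 passed, against 88.2% and 92.5% of testable genes.

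For restriction 0 of 4 testable members passed, against 0 of 350 genes (0.0%). Rpl24, a protein of the bridge between subunits, was called in 2 of 8 CTL and 7 of 8 MR libraries (exact permutation p = 0.0648, adjusted p = 0.705). For genotype 0 of 11 testable members passed, against 30 of 1850 genes (1.62%). Rpl8, near the peptidyl transferase centre, had a call in 10 of 10 libraries in WT and 5 of 10 in KO (exact permutation p = 0.0417, adjusted p = 0.0930), and it is the only member at an unadjusted p under 0.05. The 5 KO libraries without a call include the 2 short lists. With the 20000 strongest peaks per list 1 of 19 testable members passed, Rpl19, called less often in KO (exact permutation, adjusted p = 0.0471), against 39 of 2382 genes (1.64%). The KO libraries include the 2 short lists, which this cut leaves short and in which Rpl19 was not called. The gene-end peak of Rpl19 lies near a start of Cacnb1 and not at its own start.

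Members called in 2 libraries of a group and in 0 of the compared group were counted, with no test. In WT at D5, 14 members (15.7%) were called in both MR and neither CTL library, against 5.92% of all genes, and 0 the other way, against 0.153%. They included Rpl6, Rpl21, Rpl23a, Rpl24, Rpl26, Rpl35a, Rplp2, Rps3, Rps7, Rps14, Rps16, Rps24 and Rps27a, the last a fusion of ubiquitin with a small-subunit protein. From D1 to D5 in WT CTL, 15 members (16.9%) were called in both D1 and neither D5 library, against 8.93% of all genes, and 0 the other way, against 0.0971%. Under MR 3 were lost from D1 to D5 (Rpl32, Rpl37a and Rps2), against 4.98%. The MR and CTL comparison at D5 and the D5 and D1 comparison in CTL share the WT D5 CTL libraries. In whole lists only genes called in some but not all of the 18 longer lists can be counted in this way. These were 39 of the 89 members and 6929 of 21631 genes, so the shares of members and of all genes rest on unlike bases. With the 20000 strongest peaks per list, 5 members (5.62%) were gained under MR at D5, against 1.27% of genes, and 1 was lost, against 2.78%, and from D1 to D5 in CTL 3 were gained, against 4.21%, and 5 were lost, against 1.62%.

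With the 20000 strongest peaks the percent of members called in WT CTL was 50.6% and 52.8% at D1 and 53.9% and 50.6% at D5, with 59.6% and 58.4% under MR at D5. The percent of all genes was 29.4% and 30.4% at D1, 33.7% and 33.9% in D5 CTL, and 31.2% and 31.6% in D5 MR. At equal list length the D1 and D5 values in CTL overlapped, and both MR values at D5 lay above both CTL values.

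Other genes of the translation apparatus were read in the same way. Among the related genes whose transcripts also begin with a pyrimidine tract, Eef1a1, Eif4b, Pabpc1 and Tpt1 were called in all 18 longer lists, Fau, which encodes a fusion of a ubiquitin-like protein with a ribosomal protein, in 17, Rack1 in 14 and Eef2 in 0. Of the nucleolar genes Ncl was called in 18, Npm1 in 17 and Fbl in 14. Of 33 translation factors and ubiquitin fusions 75.8% to 97.0% were called per longer list, of 29 ribosome biogenesis genes 65.5% to 96.6%, and of 78 mitochondrial ribosomal protein genes 52.6% to 93.6%. From D1 to D5 in WT CTL, 1 of 21 fitted factors (Eif4h, an initiation factor, +40.2 points), 1 of 17 biogenesis genes (Nob1, which matures the small-subunit RNA, +49.3 points) and 1 of 27 mitochondrial genes (Mrps33) passed, each higher at D5. Under MR at D5 in WT, 0 of 21, 0 of 17 and 1 of 27 (Mrps12, higher) passed, with 5, 3 and 7 at an unadjusted p under 0.05 (limma). Their median differences were 3.37, 7.93 and −5.58 points. Between genotypes Eif4b, an initiation factor with a pyrimidine-tract transcript, was higher in KO by 25.8 ± 5.14 points (limma adjusted p = 0.0221). This is an average over D0, D1 CTL and D1 MR. Its within-list ranks, which describe each list only, were 96.3 and 84.6 in KO and 57.3 and 72.9 in WT at D0. They were 82.9 and 70.3 against 62.9 and 44.8 in D1 CTL. In D1 MR they were 77.2 and 26.3 against 75.2 and 73.7, with KO line 2 below both WT libraries. The mitochondrial genes Mrpl34 and Mrpl47 were also higher in KO. These calls too come from a fit that treats the KO libraries of 2 lines as independent.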

How the data were processed

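ATAC-seq was run on 20 libraries of C2C12 cells, 2 in each of 10 groups. The authors deposited a broadPeak list for every library, with peaks called in each one separately. Each deposited list gives a score, a fold enrichment (ratio), a −log10 p-value and a −log10 q-value per peak, and the values are the authors' own. The lowest −log10 q in any list is 1.00038. The build is GRCm38, per the submitters' processing notes. The aligner, the peak caller, the handling of duplicates and the shift for the transposase are not given in the sources used here. Read depth is unknown, so the length of each list stands in for it, and no interval from counts can be given.

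Members and gene lists were chosen with earlier results of these data known. Genes came from the RefSeq table of GRCm38.p6, limited to protein-coding genes on 20 chromosomes. A gene was called when a peak overlapped 1000 bp round either end, and its strongest peak was the one of highest −log10 q. Within-list rank, width and the common-set rank were computed from that peak. Rank and centred log2 width were fitted with limma 3.58.1 (R 4.3.3) as group means over the 18 longer lists, with 8 residual degrees of freedom. Calls were tested over all 20 libraries (16 for day and for restriction) with exact permutation tests within strata. Benjamini-Hochberg adjustment ran over all genes tested, with a threshold of 0.05. The scripts were tested on simulated data. Other steps used Python 3.11.15, numpy 2.4.6, pandas 2.3.3, scipy 1.17.1 and matplotlib 3.10.9.

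Alternatives were windows of 500 and 2000 bp, peaks of −log10 q of at least 2, the 20000 strongest peaks, peak midpoints, the replicate block, normal scores, ranks by the authors' fold enrichment, widths without centring, joint covered length and leaving out each WT replicate or KO line. Tests with peaks at annotated starts only were added after seeing the data. The genes named are the members that lacked a call in at least 1 longer list, those past the threshold (at most 10 per contrast), the 5 highest and lowest by rank, the 5 widest and narrowest, and a fixed choice of 11 members. The values of some of these genes are not reported here, and counts over the members include them. KO libraries of 1 line pair by design: deviations from group means correlated at 0.352 to 0.466 between conditions of the same line over 3 pairs.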

Additional observations from a re-analysis of the deposited data

Results flagged for a closer look

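At D1 the percent of members called and their median peak width differed between MR and CTL in opposite directions in the 2 genotypes. The percent of members called was 6.74 points higher in MR than in CTL in WT, and the differences were −1.12 points in KO line 1 and −4.49 points in KO line 2. The members' median peak width differed by 74.25 bp in WT and by −44 and −20.5 bp in the KO lines. The WT value is 1 difference of group means over 2 libraries per medium, and each KO value compares 1 library with 1. In KO line 1 the −1.12 points are 1 of the 89 members. The difference between genotypes in these 2 summaries was not tested. The members' median common-set rank did not show opposite directions: it was 55.2 and 49.03 in CTL and 64.0 and 61.7 in MR in WT, and it went from 59.9 to 60.2 in KO line 1 and from 50.03 to 60.8 in line 2. Nor did the median log2 width less the library's median, which was −0.12 and −0.14 in CTL and −0.16 and −0.20 in MR in WT, and went from −0.28 to −0.26 in KO line 1 and from −0.27 to −0.38 in line 2.

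The percent called over all protein-coding genes differed in the same directions as that of members: in WT it was 50.4% and 46.5% in CTL and 52.9% and 50.9% in MR, and in KO it went from 50.7% to 46.7% in line 1 and from 46.7% to 40.6% in line 2. In the common-set rank, the limma interaction of genotype and restriction at D1 passed for 0 of 5569 genes, with 272 genes and 3 members at an unadjusted p under 0.05.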

How the results depend on the processing

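The percent of members called, 76.8% over the groups, was 55.5% with the 20000 strongest peaks per list, which keeps fewer peaks by construction, and their within-list rank was then 62.7. In the same setting the MR minus CTL difference at D5 in WT was 6.74 points in place of 23.6, D5 minus D1 in WT CTL was 0.562 in place of −24.7, and KO minus WT was 1.12 in place of −2.43. The last 2 turned direction. Members called differently then numbered 1 by genotype and 0 by day.

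With the replicate block, 4 members were called differently by day, 3 differed in rank by genotype and 0 in width between MR and CTL at D5. The WT numbers did not pair (correlations −0.0466 to 0.0800), and the block moved no other count of members by over 1.5 times. Without the KO D5 libraries 0 were called differently by day, since none could be tested. With 500 bp windows 0 differed in rank by genotype and 0 in width between media at D5. Rpl19 and Rpl4, which passed in the main setting, were not among the genes fitted there. With 2000 bp windows 2 differed in rank by genotype, and 1, 2 and 3 in width by genotype, by medium at D5 and by day. With peaks of −log10 q of at least 2, 0 differed in rank by genotype, and Rpl19 was not fitted. With starts only, rank counts were 0 by genotype, 4 by medium at D5 and 5 by day, and both width counts were 0. Rpl19 and Rpl4 were not fitted with starts only. Normal scores gave 2 by medium at D5. Ranks by fold enrichment gave 6 by day and 6 by medium at D5, without Rpl27 and Rpl41 in the former and without Rpl31 and Rpl3l in the latter. Widths without centring gave 2 by medium at D5, without Rpl4, and 5 by day, and joint covered length gave 0 by medium at D5.

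Leaving out 1 WT replicate or KO line at a time gave −8.80 to 3.93 points for KO minus WT in percent called, and the value of 3.93, without KO line 2, turned its direction. It gave 0 to 4 members called differently by day. Rank counts were 0 to 7 by genotype, 0 to 16 by medium in WT at D5, 0 to 2 by medium in KO at D1 and 0 to 15 by day, and width counts were 0 to 5 by genotype, 0 to 5 by medium at D5 and 0 to 9 by day. Without a WT replicate or a KO line, the lone library left in each group of that genotype is assumed to vary like the other groups. Of the values for named members, 100 kept their side of the threshold and 15 lost it over the settings that leave out no library, and 38 kept and 38 lost it over those that do, none with a change of direction. The cause of these changes was not tested.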
